A study of Danio rerio with 63 samples.

Results

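Red blood cell genes were followed through brain tissue of adult zebrafish: hbba1 and hbba2 (adult beta-globin chains), hbaa1 and hbaa2 (adult alpha-globin chains), alas2, slc4a1a, cahz and nt5c2l1. They were chosen by symbol, and all 8 had a row among the 15418 genes of the count table. Libraries came from the olfactory bulbs (OB), the telencephalon (Tel) and the hypothalamus (Hypo in the plots) of wild-type fish of the AB strain (WT) and of fish of a cyp19a1b mutant line, in which TALENs had made a small frameshifting deletion in the second exon of the brain aromatase gene. Each library held RNA of 1 region from 3 pooled adults of the same sex and genotype. Each region had 6 pools of WT females, 4 of mutant females, 6 of WT males and 5 of mutant males, which made 63 libraries from 21 pools. All mutants came from this single line, no other treatment was given in the labels, and the methods mention no washing of blood out of the vessels. Pools are coded by a letter, A to C, followed by a digit. Each letter had 7 pools per region and occurred in all 4 groups, and the labels do not say what a letter stands for.

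Zebrafish red blood cells keep their nucleus, and circulating cells hold RNA for hemoglobin and for the proteins that make heme and move gases. Hemoglobin is a tetramer of alpha and beta chains, each with a heme group, and the adult chains are encoded by a cluster in which alpha and beta genes alternate. In a dissected brain region, transcripts of these genes are commonly read as a sign of blood in the vessels. In the reference annotation (RefSeq, a later assembly than the one the counts were made on, used for names and neighbors only), hbaa2, hbba2, ba1l, hbaa1, hbba1 and si:ch211-5k11.8 stand in this order on chromosome 3. The symbols ba1l and si:ch211-5k11.8 have the synonyms hbba1.1 and hbaa1.2, and are further beta and alpha copies. Reads with several places were left out, so how counts split among copies of like sequence is uncertain. The likeness of the copies was not measured here.

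Library totals ran from 21444 to 1033008 counts with a median of 281160, and mutant pools were shallower than WT pools in every region (median 207510 against 402273 for OB, 173909 against 353181 for Tel, and 189110 against 550592 for hypothalamus). Values are counts per 1e6 counts of a library after TMM scaling over all libraries (CPM). Each captured molecule gives 1 count whatever the transcript's length, so levels of different genes can be set side by side. Gene copies that lost reads with several places are counted too low by an unknown amount. Within-region tests kept 4520, 4437 and 6463 genes in OB, Tel and hypothalamus. The mutated gene itself had median levels of 25.2 CPM (WT) and 20.98 CPM (mutants) in OB, 1559 and 905 in Tel and 812 and 568 in hypothalamus, and cyp19a1b passed the test in no comparison of genotypes (edgeR's quasi-likelihood test, Benjamini-Hochberg adjusted p from 0.303 to 0.912). Neuron markers were present in every region, with snap25a at a mean of 372, 3475 and 6977 CPM in OB, Tel and hypothalamus.

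The 8 genes took 0.418% of all counts, and the 4 globins among them 94.3% of that part. With ba1l and si:ch211-5k11.8 added, adult globins took 0.714% of all counts. Summed over libraries, hbba1 had 54008 counts and ranked at position 40 of all genes, hbaa1 16950 counts (220), hbba2 13267 (296) and hbaa2 2734 (1386). The other genes were far rarer, with 1909 counts of cahz, 1649 of nt5c2l1, 1135 of alas2 and 519 of slc4a1a. No library lacked hbba1 or hbaa1. From 2 to 5 of the 63 libraries had no count of each of the other 6 genes, the most for slc4a1a. The members' share of a library's counts had a median of 0.0830% in the OB (0.0329 to 0.316), 0.315% in the Tel (0.117 to 0.594) and 0.533% in the hypothalamus (0.247 to 1.47).

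**Figure D1:**
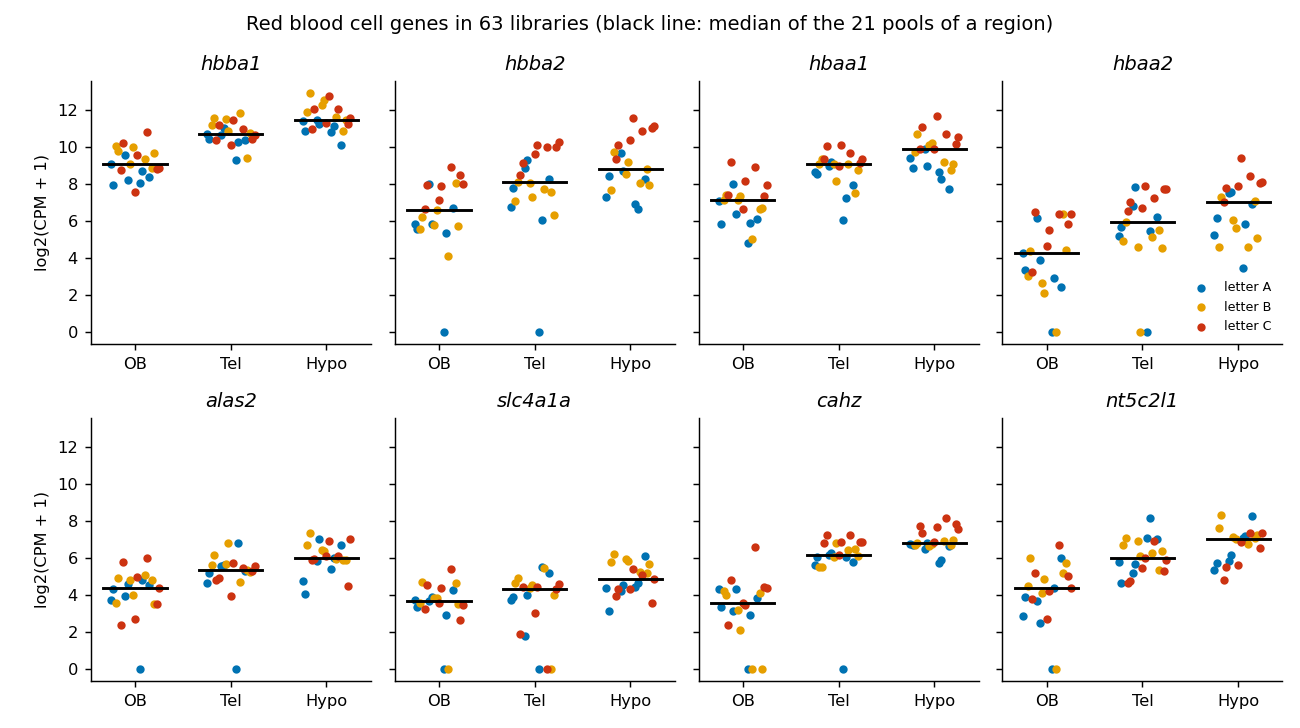
Levels of the 8 red blood cell genes, log2(CPM + 1), in every library of OB, Tel and hypothalamus (Hypo). Each point is 1 pool, colored by pool letter, and the line is the median of 21 pools, which for hbba1 rose from 547 CPM in the OB to 2814 CPM in the hypothalamus.

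The first comparison was between regions of the same pools. Every member that could be tested was lowest in the OB, intermediate in the Tel and highest in the hypothalamus. The most abundant one, hbba1, ran from 193 to 1804 CPM in the OB (median 547), from 628 to 3701 in the Tel (median 1692) and from 1100 to 7845 in the hypothalamus (median 2814). The ranges of neighboring regions overlapped, yet 21 of 21 pools had less hbba1 in the OB than in the hypothalamus. Its mean ± SD was 654 ± 390, 1858 ± 790 and 3408 ± 1795 CPM (n = 21 pools each). In the same order of regions, hbaa1 had 172 ± 142, 523 ± 268 and 1032 ± 726 CPM. The second beta gene, hbba2, had 144 ± 131, 443 ± 387 and 846 ± 828 CPM, and the second alpha gene, hbaa2, 31.2 ± 32.4, 90.9 ± 77.3 and 159 ± 157 CPM. The SD of both was close to or above their mean in each region, unlike that of hbba1.

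The genes outside the globin cluster followed the same order. Levels of alas2, which makes the first and rate-limiting enzyme of heme synthesis in red cells, were 21.8 ± 15.3 CPM in OB, 44.4 ± 26.4 in Tel and 74.7 ± 38.0 in hypothalamus (SD, n = 21 each). Levels of cahz, a cytosolic carbonic anhydrase that turns carbon dioxide into bicarbonate, were 15.4 ± 19.6, 81.8 ± 36.6 and 132 ± 58.3 CPM. Those of nt5c2l1, which is named for a cytosolic nucleotidase, were 26.9 ± 25.9, 81.5 ± 60.2 and 125 ± 79.1 CPM. The anion exchanger gene slc4a1a (band 3), whose protein swaps bicarbonate for chloride across the red cell membrane, had 13.7 ± 9.40, 17.6 ± 13.1 and 34.1 ± 19.7 CPM. It had too few counts to be tested between regions.

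In a fit over all 63 libraries with the pool as a block (edgeR's quasi-likelihood test, Benjamini-Hochberg adjustment over 4872 genes, a call needing an adjusted p of at most 0.05 and a change of at least 1.5-fold), 7 of the 7 members tested were lower in the OB than in the Tel. Of all genes, 57.9% were called in this comparison and 28.2% were lower in the OB. The hypothalamus was higher than the Tel in 7 of 7 members, where 15.5% of all genes were called and 9.17% were higher. Between the OB and the hypothalamus, 7 of 7 members were lower in the OB, beside 58.6% of all genes called and 29% lower. The 3 comparisons share libraries and are not independent of each other. The median log2 difference of the members was −1.59 for the OB against the Tel, 0.81 for the hypothalamus against the Tel and −2.40 for the OB against the hypothalamus, where the medians of all genes were −0.01, 0.01 and −0.01. Scaled by the library total only, the median of all genes shifted to −0.41 in both comparisons of the OB, and the members stayed lower there, from −1.41 for alas2 to −2.94 for cahz against the Tel.

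Between the OB and the Tel, the 4 globins fell close together, with log2 differences of −1.59 (SE 0.13) for hbba1, −1.62 (0.16) for hbba2, −1.74 (0.13) for hbaa1 and −1.55 (0.20) for hbaa2. The difference was −2.55 (0.17) for cahz, −1.48 (0.19) for nt5c2l1 and −1.002 (0.21) for alas2. Thus cahz lay farthest from 0 and alas2 nearest, although no test of 1 member against another was run. From the Tel to the hypothalamus the 7 genes had nearly the same step, from 0.71 for cahz to 0.84 for alas2 on the log2 scale. Adjusted p-values of edgeR's test ran from 1.28e-21 to 2.35e-05 for the OB against the Tel, from 8.15e-09 to 4.46e-05 for the hypothalamus against the Tel, and from 2.09e-29 to 2.11e-14 for the OB against the hypothalamus. All 21 calls held when each pool was left out in turn. Levels in bulk tissue are shares of a library's counts. Fewer red cells, less RNA per red cell and more RNA of other cells thus cannot be told apart.

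**Figure D2:**
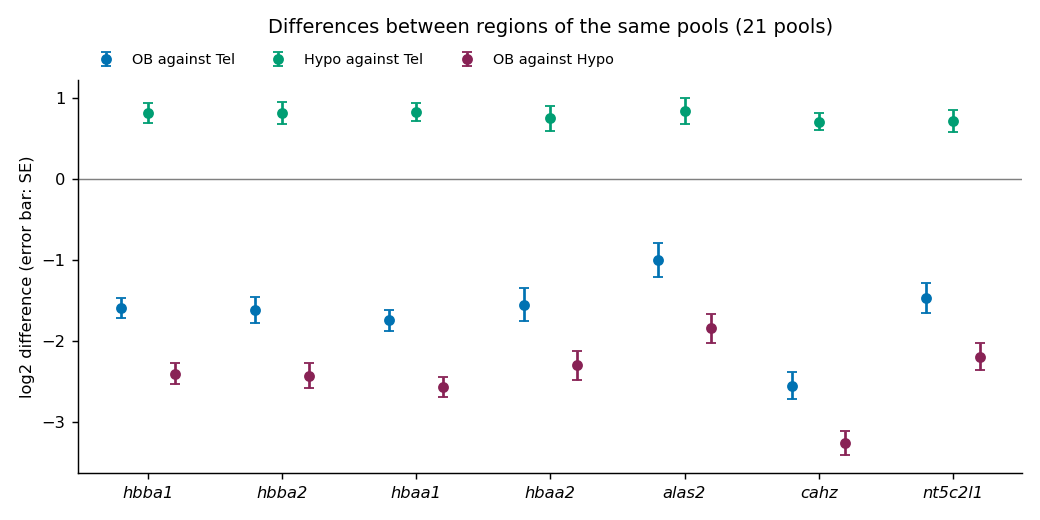
Log2 differences (points) with their SE (bars) between regions of the same 21 pools, for the 7 members that could be tested. All differences of the OB lie below 0, down to −3.26 for cahz against the hypothalamus, and those of the hypothalamus against the Tel lie between 0.71 and 0.84.

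The further adult globin copies moved like the members. Levels of si:ch211-5k11.8 averaged 586, 1508 and 2746 CPM in OB, Tel and hypothalamus, and those of ba1l 313, 815 and 1508 CPM. Both were called in all 3 comparisons, with −1.49 (SE 0.13) and −1.53 (0.13) on the log2 scale for the OB against the Tel. They were 2 of 2 tested among 13 other globin genes with a row. The embryonic globins (hbae1.1 to hbae5 and hbbe1.1 to hbbe3) averaged at most 2.15 CPM and were at 0 in most libraries. The globins of other tissues had another pattern. Neuroglobin, ngb, averaged 5.02, 253 and 83.3 CPM, and the cytoglobins cygb1 and cygb2 104.7, 28.4 and 30.5 CPM, and 1.51, 86.6 and 39.1 CPM. Of the 4 genes of that list tested, 2 were lower and 1 higher in the OB than in the Tel (cygb1, 2.01 on the log2 scale, SE 0.17).

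As a set, other genes of red cell biology showed no common order of regions, although aqp1a.1, lmo2 and tal1 had that of the members. In the list of membrane and skeleton genes, 3 of the 3 tested (of 11 with a row) were lower in the OB than in the Tel: the water channel gene aqp1a.1 (−1.47 on the log2 scale, SE 0.26), dmtn (−1.16, SE 0.10) and add2 (−0.88, SE 0.18), which cross-link the actin skeleton. Vessels also express aqp1a.1, and neurons dmtn and add2. Of 3 heme synthesis genes tested, cpox was higher (0.96, SE 0.21) and uros lower (−0.76, SE 0.21) in the OB than in the Tel, and alas1, the enzyme of other tissues, was higher in the OB than in the hypothalamus (0.73, SE 0.08). Of 6 iron genes tested, 5 were higher in the OB than in the Tel, among them the ferritin genes fthl27 (2.63, SE 0.12) and fth1a (0.82, SE 0.09) and blvrb (2.42, SE 0.13), which reduces biliverdin. Of the 3 transcription factors tested, klf3 was higher in the OB than in the Tel (4.39, SE 0.20) while lmo2 and tal1 were lower (−1.37, SE 0.24, and −0.88, SE 0.39). In the hypothalamus, aqp1a.1 (1.41, SE 0.16), lmo2 (1.34, SE 0.16) and tal1 (3.48, SE 0.20) were called higher than in the Tel. No other gene of the lists in this paragraph was called between the hypothalamus and the Tel. The erythroid master factor gene gata1a had too few counts to be tested, with means of 3.45, 12.1 and 8.89 CPM, as had the erythropoietin receptor gene epor (at most 0.55 CPM).

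Markers of other cells in the samples also moved with the region. Neuron genes were lower in the OB than in the Tel for 7 of 8 tested, with median summed levels of 1944, 9943 and 13479 CPM in OB, Tel and hypothalamus. Genes listed for choroid plexus and ependyma were higher in the OB for 6 of 6 tested (2026, 67.9 and 57.5 CPM). These were foxj1a, foxj1b, rfx2, cfap45, tekt1 and enkur, and which cells gave their transcripts was not tested. Microglia and macrophage genes were also higher there for 5 of 5 (23290, 991 and 1120 CPM), led by apoeb. Of 2 mural cell genes tested, rgs5a was higher in the OB than in the Tel (3.97, SE 0.14) and tagln lower (−1.89, SE 0.26), with summed levels of 1239, 152 and 201 CPM. The endothelium list summed to 121 CPM in the OB (62.9 to 173), 95.9 in the Tel (33.0 to 169.8) and 156 in the hypothalamus (104 to 234). Only aqp1a.1 of that list could be tested, and the defining genes kdrl, cdh5 and pecam1 averaged from 1.09 to 16.9 CPM in any region. Their part in the difference between regions was not tested.

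Median summed levels of white blood cell and thrombocyte genes did not share the order of the red cell genes. Neutrophil genes summed to a median of 596 CPM in OB, 93.5 in Tel and 106 in hypothalamus, most of it from nccrp1, the only one tested (2.79 on the log2 scale for the OB against the Tel, SE 0.11). The defining genes mpx and lyz averaged 10.1, 4.04 and 4.22 CPM, and 3.63, 1.08 and 1.12 CPM. Lymphocyte genes summed to 40.6, 9.84 and 12.7 CPM and thrombocyte genes to 25.2, 23.99 and 42.9 CPM. No gene of these lists had enough counts for the test between regions. Their defining genes lck, cd79a, itga2b and mpl averaged at most 5.89 CPM.

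Pools with much hbba1 in one region tended to have much in the others. Over 21 pools, log2(CPM + 1) of hbba1 correlated between the OB and the Tel with Pearson's r = 0.576 (permutation p = 0.00659, adjusted over 3 pairs of regions 0.00659) and Spearman's rho = 0.657 (p = 0.00154, adjusted 0.00154). Between the OB and the hypothalamus r was 0.670 (p = 0.00088, adjusted 0.00132) and rho 0.765 (p = 0.0001, adjusted 0.00015). Between the Tel and the hypothalamus r was 0.715 (p = 0.00026, adjusted 0.00078) and rho 0.840 (p = 2e-05, adjusted 6e-05, by 100000 two-sided permutations). Without the 2 pools farthest from the median, r was 0.580, 0.731 and 0.716. After removal of the 4 group means it was 0.598, 0.753 and 0.661. Within letters of 7 pools each, r was positive in all 9 cases, at 0.363, 0.545 and 0.366 for letter A, 0.384, 0.535 and 0.648 for B, and 0.786, 0.616 and 0.931 for C. Regions with the same sex, genotype and code were taken to come from the same 3 fish, which the labels do not state outright.

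The next comparison was between mutant and WT fish of each sex within a region. No member was called between mutants and WT in any of 40 tests over both sexes and the 3 regions (edgeR's quasi-likelihood test, adjusted over all genes tested after Benjamini and Hochberg). At an unadjusted p of 0.05 there were 3 (hbba1 in hypothalamic males, nt5c2l1 in OB males and Tel females), and DESeq2 called 0 as well. That threshold was reached by 12.3%, 12.5% and 12.1% of all genes in females in OB, Tel and hypothalamus. For males these shares were 9.60%, 9.65% and 14.9%. Of all genes, 2.59%, 2.46% and 3.56% were called in females in OB, Tel and hypothalamus, and 0.0221%, 0.0225% and 1.93% in males. The members' median log2 difference in females was 0.25 in OB, 0.23 in Tel and 0.04 in hypothalamus. In males it was 0.64, −0.18 and −0.14. No member's groups of pools were fully apart in any of these comparisons. The share of all genes that were fully apart is not given here.

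In the OB, hbba1 had 733 ± 374 CPM in WT females (n = 6) and 788 ± 697 in mutant females (n = 4), and 601 ± 321 in WT males (n = 6) and 514 ± 190 in mutant males (n = 5). In the Tel these means were 2024 ± 665, 1906 ± 1334, 2076 ± 712 and 1361 ± 419 CPM. In the hypothalamus they were 3756 ± 2216, 2913 ± 1070, 4355 ± 2012 and 2251 ± 777 CPM. Mutant and WT pools overlapped in each of these comparisons. The 4 pairs of member and region under the filter on low counts (alas2, slc4a1a and cahz in the OB, slc4a1a in the Tel) were compared by two-sided exact permutation tests. The lowest p of the 16 was 0.190 (adjusted 0.983), where the groups allow a smallest p between 0.00216 and 0.0159.

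The hypothalamus of males held the largest difference of hbba1 between genotypes. Mutant pools had 1100 (A1), 1880 (B1), 2814 (B2), 2439 (C1) and 3024 CPM (C2), and WT pools ran from 2445 to 7083 CPM with a median of 3954. The groups overlapped, with 3 of the WT pools (A1, A2 and C1, at 2844, 2445 and 2563 CPM) among the mutant values. The log2 difference was −0.94 (SE 0.35, adjusted p = 0.187 by edgeR's quasi-likelihood test), which was no call. The alpha chain gene hbaa1 had 216 to 1503 CPM in mutant males and 508 to 3260 in WT males (−0.77, SE 0.49, adjusted p = 0.499 by the same test).

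Within each pool letter, the mean of hbba1 in the hypothalamus was lower in mutant males than in WT males. For letter A, the only mutant male pool had 1100 CPM against a WT mean of 2644. Means were 2347 against 5598 CPM for B and 2732 against 4823 for C. In letter C the pools overlapped, with mutant C2 (3024 CPM) above WT C1, and WT C2 had 7083 CPM. With the letter as a term of edgeR's fit, hbba1 (−1.06, SE 0.25, Benjamini-Hochberg adjusted p = 0.0159) and hbaa1 (−1.10, SE 0.29, adjusted p = 0.0309) were called, so that 2 of 8 members were lower in mutant males beside 3.05% of all genes called and 2.06% lower. Females gave means of 2074 against 2315 CPM for A. The only mutant female pools of B and C had 3249 and 4256 CPM, against WT means of 5812 and 3142. With the letter as a term, females gave −0.16 on the log2 scale (adjusted p = 0.857 by edgeR's test). The difference between the sexes did not pass the test with that term (0.90, adjusted p = 0.310 by edgeR's test of the interaction). Thus the call on these 2 genes depends on whether the letter is in the fit.

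**Figure D3:**
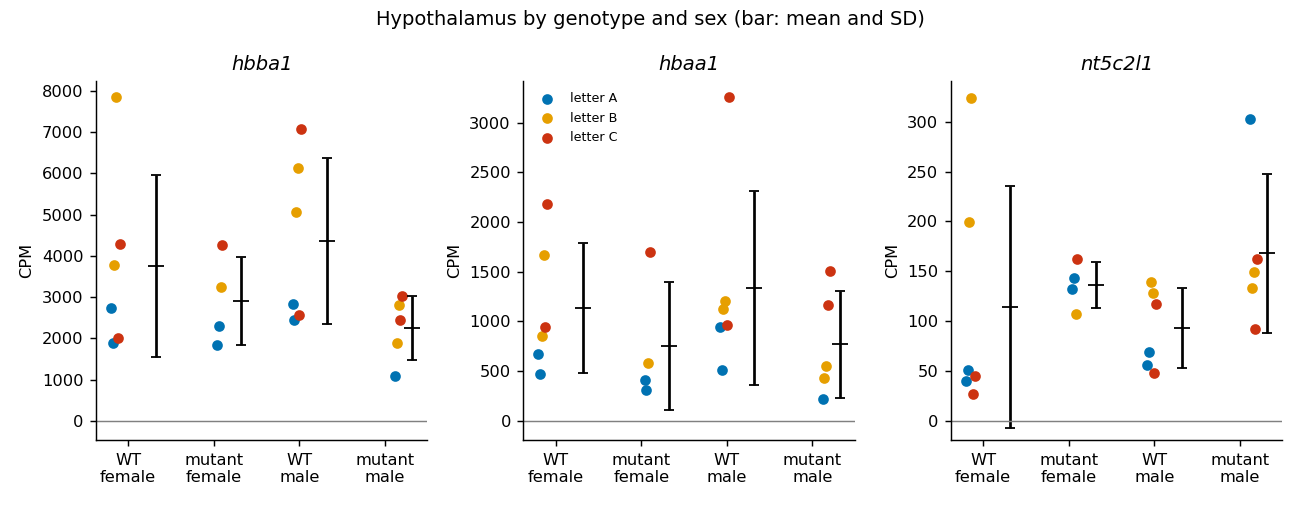
Levels in CPM of hbba1, hbaa1 and nt5c2l1 in each hypothalamus library by genotype and sex, colored by pool letter, with the mean and SD of each group beside the points. For hbba1, mutant males lie between 1100 and 3024 CPM and WT males between 2445 and 7083, so the groups overlap.

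The nucleotidase gene nt5c2l1 had higher means in mutants in several comparisons. In the OB of males it had 40.4 ± 17.3 CPM in mutants (n = 5) and 13.9 ± 8.65 in WT (n = 6), with a log2 difference of 1.40 (SE 0.53, adjusted p = 0.467 by edgeR's quasi-likelihood test). In the Tel of females it had 154 ± 91.1 CPM in mutants (n = 4) and 61.4 ± 47.7 in WT (n = 6), with 1.25 (SE 0.53, adjusted p = 0.289 by the same test). In hypothalamic males it had 168 ± 79.9 CPM in mutants and 93.0 ± 39.8 in WT (0.84, adjusted p = 0.436). None of these was a call. Counts per library were low, from 4 to 14 in the OB of mutant males and from 4 to 26 in the Tel of mutant females.

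No member was called for sex or for its interaction with genotype. Between males and females, 0 of 40 tests were called and 0 reached an unadjusted p of 0.05 by edgeR's test, and DESeq2 called 0. That threshold was reached by 1.80 to 3.71% of all genes in WT and 8.36 to 15.7% in mutants, by region. Background calls were 0.0885%, 0.0451% and 0.0155% of all genes between WT males and females in OB, Tel and hypothalamus, and 2.26%, 1.19% and 2.38% between mutant males and females. Of 20 tests of the interaction 0 were called and 0 reached an unadjusted p of 0.05, with 0 calls by DESeq2, beside 0.199%, 0.496% and 2.04% of all genes. The widest sex difference of a member in these 40 tests was 1.12 on the log2 scale. Other lists held a few calls by edgeR's test. Between mutant and WT females these were mb, a muscle globin gene (−3.57, adjusted p = 0.00468), and rgs5a (−1.32, 0.0102) in the hypothalamus and slc40a1 (1.28, 0.0428) in the OB. Between mutant and WT males it was fth1a in the hypothalamus (−0.69, 0.0255). Between mutant males and females, mb (3.82) and rgs5a (1.90) were called in the hypothalamus, as they were for the interaction.

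Calls among the members came with the pool letters. Over the 3 pairs of letters and the 3 regions, with sex and genotype in the fit, 20 of 60 member tests were called (edgeR's quasi-likelihood test, Benjamini-Hochberg adjusted over all genes), and 33 reached an unadjusted p of 0.05. That threshold was reached by 6.51 to 33.5% of all genes, depending on the letters and the region. Most calls set letter C apart. In the hypothalamus, 6 of 8 members were called between C and B, beside 10.6% of all genes (4 higher and 2 lower in C, where 3.56% and 6.99% of all genes were). Between C and A, 5 of 8 were higher in C, beside 13.7% of all genes called and 4.53% higher. In the Tel, 3 of 7 were higher in C than in B (9.38% of all genes called, 3.04% higher) and 3 of 7 than in A (6.33% called, 2.34% higher). In the OB it was 1 of 5 in each (6.48% called and 3.38% higher against B, 2.7% and 1.44% against A). Between B and A, 1 of 8 was higher in B in the hypothalamus (0.248% of all genes called, 0.108% higher), 0 of 7 in the Tel (0%, with 2 members at an unadjusted p of 0.05) and 0 of 5 in the OB (0.199%, with 1 member at an unadjusted p of 0.05). The labels of these pools name no date, tank or run, so what else differs between the letters cannot be told.

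The second beta gene, hbba2, showed the widest step of the members between C and A. In the hypothalamus it ran from 100 to 822 CPM in letter A (median 316), from 203 to 866 in B (median 382) and from 669 to 3038 in C (median 1911). Letters overlapped at their ends, where WT pool C1 of females lay within the range of A and B. The log2 difference was 2.48 between C and A and 2.02 between C and B (SE 0.34, adjusted p = 0.00036 by edgeR's test). In the Tel it had 0 to 629 CPM in A (median 224), 78.9 to 276 in B (median 192) and 365 to 1250 in C (median 1023). There C and B did not overlap (2.09 on the log2 scale), and C against A gave 1.64. How many of all genes did not overlap between letters is not given here. In the OB the medians were 56.1, 53.9 and 253 CPM, and C exceeded B by 1.44 (adjusted p = 0.0289 by the same test). This call was lost when any of 6 pools was left out (mutant female C1, mutant male B2, WT female B1 or C2, WT male B1 or B2), with adjusted p up to 0.0697. In females alone, C against B was no call for hbba2 in the Tel (1.55, adjusted p = 0.0574 by edgeR's test) or the hypothalamus (1.498, adjusted p = 0.0653), nor in WT pools alone in the hypothalamus (1.42, adjusted p = 0.0559), where C against A stayed a call (1.82). In the Tel, C against A was no call in WT pools alone (1.04, adjusted p = 0.0813) or in males alone (1.25, adjusted p = 0.130).

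The second alpha gene, hbaa2, behaved alike. In the hypothalamus it had a median of 70.8 CPM in A (10.2 to 190), 48.2 in B (23.3 to 158) and 266 in C (131 to 696), and C exceeded B by 2.04 (SE 0.38, adjusted p = 0.00093 by edgeR's quasi-likelihood test) and A by 1.68. In the Tel, C had 93.9 to 240 CPM and B 0 to 61.6, so the letters did not overlap (2.09). In females alone, C against B was no call for hbaa2 in the Tel (1.41, adjusted p = 0.0574 by edgeR's test) or the hypothalamus (1.61, adjusted p = 0.0653), and C against A in the hypothalamus was none in WT pools alone (1.49, adjusted p = 0.0707) or in males alone (1.21, adjusted p = 0.0747). The first alpha gene, hbaa1, had a median of 472 CPM in A (216 to 943), 854 in B (432 to 1667) and 1503 in C (943 to 3260) in the hypothalamus, with C above A by 1.89 and above B by 1.00. The call against B was lost with low-total libraries left out (0.88, adjusted p = 0.0831), in WT pools alone (0.58, adjusted p = 0.290), without the WT pools C2 (0.78, adjusted p = 0.0654), in females alone (0.73, adjusted p = 0.159) and in males alone (1.16, adjusted p = 0.0563), all by edgeR's test. It was also higher in C than in A in the Tel (1.16) and the OB (1.43, adjusted p = 0.0393). The Tel call was lost in WT pools alone (adjusted p = 0.1004), in males alone (0.264) and without the WT pools C2 (0.0529). The OB call was lost without any 1 of 9 pools (mutant female A1, A2 or C1, mutant male A1 or C2, WT female A1, A2 or C2, WT male A2), with adjusted p up to 0.137.

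In the hypothalamus the first beta gene, hbba1, differed from the other globin members, which were called higher in C than in B. The further beta copy ba1l was, like hbba1, called between C and A but not between C and B. Its medians there were 881, 1554 and 1617 CPM in A, B and C. In the hypothalamus hbba1 had a median of 2309 CPM in A (1100 to 2844), 3779 in B (1880 to 7845) and 3024 in C (2005 to 7083). It was higher in B than in A (1.08, adjusted p = 0.0184 by edgeR's quasi-likelihood test) and in C than in A (0.92), while C against B gave −0.17. The call between C and A was lost in WT pools alone (0.68, adjusted p = 0.171), in females alone (0.71, adjusted p = 0.0991) and in males alone (1.07, adjusted p = 0.0515). The call between B and A was lost without any 1 of 4 pools (WT female A2 or B2, WT male A2 or B2), with adjusted p up to 0.0887. It was also lost with low-total libraries left out, with thinned counts and with at least 10 counts in every library. WT pools alone and males alone lost it as well.

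Among the members outside the globin cluster, cahz was the one that rose in letter C. In the hypothalamus it had 51.1 to 111 CPM in A, 98.5 to 125 in B and 116 to 284 in C, with C above A by 1.09 and above B by 0.88 (SE 0.17, adjusted p = 0.00111 by edgeR's quasi-likelihood test). In the Tel, C exceeded A by 0.89 and B by 0.82. The call against A in the Tel was lost without mutant female C1 (adjusted p = 0.0517), and that against B without any 1 of 4 pools (mutant female C1, WT female B1 or B2, WT male B1), with adjusted p up to 0.0676. Both Tel calls of cahz were also lost in WT pools alone, in males alone and without the WT pools C2, and both hypothalamic ones in males alone (adjusted p = 0.0548 and 0.0563). In contrast, slc4a1a was lower in C than in B in the hypothalamus, with 10.7 to 41.4 CPM against 35.5 to 74.4 (−1.13, SE 0.30, adjusted p = 0.0125), a call lost in males alone (−0.94, adjusted p = 0.192). Likewise nt5c2l1 was lower, with a median of 92.3 against 139 CPM (−1.07, SE 0.35, adjusted p = 0.0406), a call lost without any 1 of 8 pools (mutant male C1, WT female B1, B2, C1 or C2, WT male B1, B2 or C1), with adjusted p up to 0.105. Medians of alas2 in the hypothalamus were 56.2, 83.2 and 66.8 CPM in A, B and C, and it was called between no letters.

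**Figure D4:**
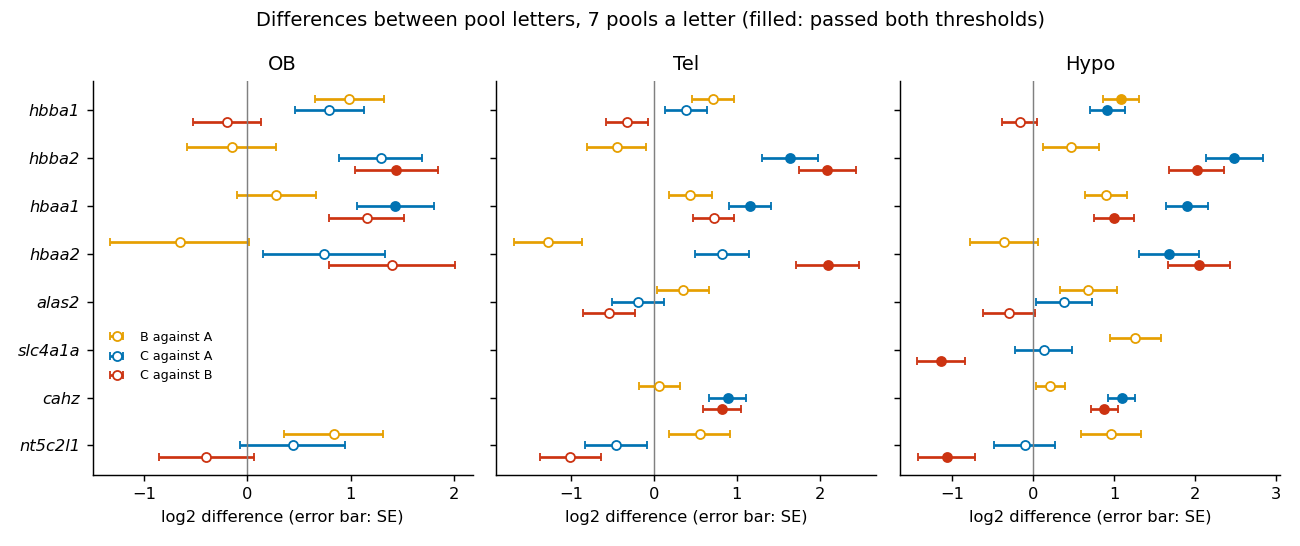
Log2 differences (points) with their SE (bars) between pool letters in each region, fitted with sex and genotype over 21 pools. Filled points passed both thresholds: hbba2 and hbaa2 lie near 2 for C against B in the Tel and the hypothalamus, while slc4a1a and nt5c2l1 lie near −1 in the hypothalamus.

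Other lists changed between letters as well. The further globin copies did so too. In C, ba1l was higher than in A in the Tel (0.87) and the hypothalamus (1.46), but it was not called against B. Levels of si:ch211-5k11.8 were higher in C than in A and B in the hypothalamus (1.19 and 0.67). There zgc:163057, a globin gene by its list, was higher in C than in A (1.43). The thrombocyte gene gp1bb was lower in C than in B in the hypothalamus (−1.36). The ferritin gene fthl27 was higher in C than in B in the Tel (0.79) and the hypothalamus (0.83), whereas ank1a and add2 of the membrane list were lower in C than in A in the hypothalamus (−1.29 and −0.77). Neuron genes moved in both directions, with syn1 lower (−1.17), elavl4 lower (−0.76) and stmn1b higher (0.64) in C than in B in the hypothalamus. Their summed levels there had medians of 12620, 14145 and 13479 CPM in A, B and C. Endothelium genes summed to 169, 166 and 149.6 CPM (104 to 234 over all pools), neutrophil genes to 111, 93.9 and 112 CPM, and library totals had medians of 460620, 531312 and 486328 counts. Their part in the difference between letters was not tested.

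The share of hbba1 in the beta-globin counts set letter C apart from A and B, as a description of these pools without a test. Of the counts on hbba1, ba1l and hbba2 together, hbba1 took 56.6 to 75.4% in letter A, 62.9 to 72.9% in B and 41.3 to 54.3% in C in the hypothalamus. In the Tel the shares were 55.4 to 79.2%, 60.9 to 75.8% and 41.4 to 55.0%. In the OB they were 54.6 to 76.9%, 55.6 to 78.8% and 42.2 to 52.6%, with as few as 13 beta-globin counts in a pool. All 7 pools of C thus lay below all pools of A and B in each region, in both sexes and genotypes. The shares of hbba2 and ba1l overlapped between C and the other letters in each region, as did that of hbba1 between A and B. The regions are taken to come from the same pools, so they are not 3 independent cases.

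**Figure D5:**
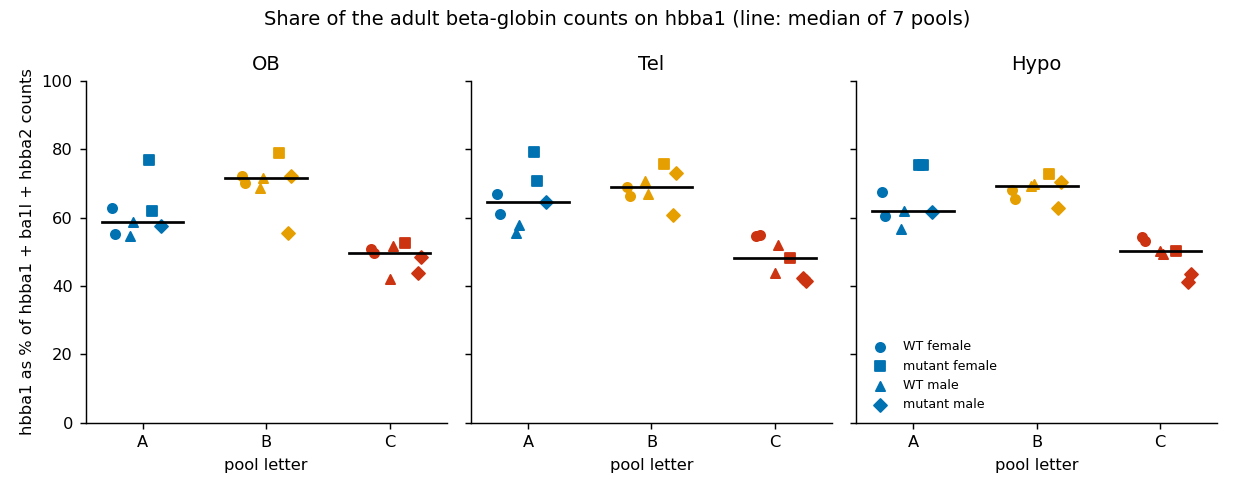
Share of adult beta-globin counts (hbba1, ba1l and hbba2) that fell on hbba1, in percent, by pool letter and region, with symbols for sex and genotype and a line at the median of 7 pools. In the hypothalamus the 7 pools of C lie between 41.3 and 54.3%, below the lowest pool of A (56.6%) and of B (62.9%).

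The makeup of the beta-globin counts was alike in Tel and hypothalamus of a pool. Between the Tel and the hypothalamus of the same pool, the share of hbba1 differed by a median of 2.02 percentage points and at most 6.42, while it ranged over 34.1 points among pools in the hypothalamus. That of hbba2 differed by a median of 1.34 points and at most 6.90, over a range of 31.8 points. Between the OB and the hypothalamus, where counts were fewer, the differences reached 13.35 points for hbba1 and 16.69 for hbba2 (medians 3.32 and 2.50). For the alpha shares of hbaa1 and si:ch211-5k11.8 they reached 17.28 and 18.4 points, beyond the range of 16.65 and 16.49 points among pools in the hypothalamus. For every 100 counts of hbba1, the hypothalamus had a median of 17.2 counts of hbba2 in A, 8.88 in B and 44.9 in C, and the Tel 16.0, 8.24 and 49.5. The ratio of hbba1 to hbaa1 in the hypothalamus was 3.01 to 7.32 in A, 4.35 to 5.61 in B and 1.96 to 2.66 in C. Among alpha-globin counts in the hypothalamus, si:ch211-5k11.8 took 64.3 to 68.3% in C, 68.7 to 80.8% in A and 70.8 to 74.5% in B. In the Tel (65.5 to 68.6% in C, 66.7 to 81.2% in A) and the OB (62.6 to 76.3% in C, 70.1 to 83.3% in A) the letters overlapped. Summed over copies, the ratio of beta to alpha counts had medians of 1.41, 1.42 and 1.47 in OB, Tel and hypothalamus and ran from 0.898 to 2.74 over libraries. It also moved with the letter, and in the hypothalamus all pools of B (1.49 to 2.14) lay above all pools of C (1.09 to 1.48). Reads with several places were left out and the sequences of the copies were not compared here. How far this moved the split among copies was not tested.

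The members differed in how far they spread among pools of the same group. The SD of log2(CPM + 1) after removal of group means placed hbaa2 at percentile 99.4, 99.6 and 99.0 and hbba2 at 99.1, 99.3 and 98.1 among all genes tested in OB, Tel and hypothalamus. For hbba1 the percentiles were 75.8, 52.8 and 69.7, and for hbaa1 79.5, 64.8 and 84.7. That of nt5c2l1 was 98.0, 62.5 and 83.4. Rare genes spread more from counting alone, and these percentiles are not matched on level.

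Nor did the members rise and fall as 1 block. Pearson's r between pairs of members over 21 pools of a region, after removal of group means, had a median of 0.658 in the OB (10 pairs), 0.520 in the Tel (21 pairs) and 0.424 in the hypothalamus (28 pairs). It was negative in 0, 4 and 6 pairs. The closest ties included hbba2 with cahz (0.875 for Tel and 0.845 for hypothalamus) and slc4a1a with nt5c2l1 (0.835 in the hypothalamus), and the lowest were hbba2 with nt5c2l1 in the Tel (−0.241) and hbaa2 with slc4a1a in the hypothalamus (−0.226). All genes of a library share its depth and scaling, so these values are descriptions.

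Of 3306 genes tested in all regions, the closest in pattern to the mean of the 5 members tested in all of them were the further globin copies si:ch211-5k11.8 (mean r of 0.936 over the 3 regions, 21 pools each) and ba1l (0.877). Next came zgc:65894 (0.748), taldo1 (0.739), gstk1 (0.737), ndufs3 (0.730), h2ax (0.728), tubb2b (0.725), gabarapl2 (0.711) and psmd14 (0.701), close to the eleventh gene at 0.701. A gap thus lay between the globin copies and all other genes. Of the 10 genes compared from the other red cell lists, 2 were among the top 50, and these were the same 2 globin copies. The 5 members in the mean were the 4 globins and nt5c2l1, so the rank of further globin copies is no independent support.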

How the data were processed

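Libraries were made by bulk RNA barcoding sequencing (BRB-seq), which tags each captured 3′ end with a unique molecular identifier (UMI). The deposited values are raw counts of distinct UMIs per gene, which the authors made after alignment to the danRer11 transcriptome (BWA 0.7.4.4 per the submitters' processing notes) without reads that mapped to several places. Libraries were grouped by the labels, and libraries of the 3 regions that share sex, genotype and code were treated as 1 pool.

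Counts were compared with edgeR 4.0.16 (R 4.3.3): TMM scaling, a filter on low counts, quasi-likelihood tests and Benjamini-Hochberg adjustment over all genes tested. Group contrasts were fitted per region over 21 libraries, letters with the 4 groups as a term, and regions over 63 libraries with the pool as a block. A call has an adjusted p of at most 0.05 and at least a 1.5-fold change (interaction, adjusted p only). P-values of the group and letter fits measure the spread between pools. Those of the region fit measure the spread of region differences within pools. Members under the filter were given two-sided exact permutation tests on log2(CPM + 1), and correlations 100000 permutations (scipy 1.17.1). Fits were tested on simulated data.

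Members and lists were chosen with earlier results of these data known. All 8 members are named, and of other lists a part of the called genes, highest level first, with the defining markers of other cells and the 10 genes most alike in pattern. The genes gata1a, epor and the untested globins were named for completeness after their values were seen.

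Alternatives were DESeq2 1.42.0, its size factors, the library total only, scaling without the members, other count filters, no fold threshold, only the 2 groups compared, only WT libraries, low-total libraries left out, thinned counts, rlog values with limma 3.58.1, pool code or letter as a block, a pseudocount of 10 for the correlations, and each pool left out in turn. Fits without the WT pools C2, only in females and only in males were added after seeing the data.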

Additional observations from a re-analysis of the deposited data

Results flagged for a closer look

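In 18 of 96 groups of 4 to 6 pools, 1 pool lay far from the others by Dixon's criterion. This pool was a C2 pool in 10 cases and a C1 pool in 7. The nominal rate of about 1 in 20 groups holds for normally distributed values. CPM are skewed and some flagged groups had few counts (slc4a1a in the OB of mutant females at most 4), so no excess over that rate can be read here. The groups of different regions and genes share pools and are not independent.

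In WT female pool C2 of the OB, hbaa1 had 587 CPM (the other pools 56.1 to 173), hbaa2 90.3 CPM (7.16 to 19.7) and hbba2 253 CPM (46.6 to 101). In mutant female pool C1 of the OB, hbaa1 had 493 CPM (26.9 to 59.9), hbaa2 83.9 CPM (0 to 6.66), hbba2 493 CPM (0 to 39.95), slc4a1a 42.0 CPM (0 to 6.66) and cahz 94.4 CPM (0 to 6.66). The same pool stood apart in the hypothalamus for hbaa2 (355 CPM, others 10.2 to 57.4) and hbba2 (1911 CPM, others 100 to 266). It is the only mutant female pool of letter C.

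In the hypothalamus of WT male pool C2, hbaa1 had 3260 CPM (others 508 to 1211), hbaa2 696 CPM (48.2 to 235), hbba2 3038 CPM (382 to 1339) and cahz 206 CPM (87.8 to 116), and in its Tel hbaa1 had 1119 CPM (290.3 to 597). Its OB had 20.1 CPM of slc4a1a (11.01 to 14.02). Mutant male pool C2 had 46.7 CPM of alas2 in the Tel (37.6 to 39.5). The 1 case outside letter C was mutant male pool B2, with 841 CPM of hbba1 in the OB (342 to 471). No technical measure was tested against these values.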

How the results depend on the processing

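No called difference of a member reversed under any alternative run. The 21 calls between regions became 23 with no filter on low counts and 20 with no replicate block, where hbaa2 lost its call between the hypothalamus and the Tel (adjusted p = 0.0886, edgeR's quasi-likelihood test). With each pool left out in turn they stayed at 21 to 21. For genotype, sex and their interaction the count of 0 stayed under all alternatives but the blocks, with 0 to 0 when each pool was left out. With pool code as a replicate block, 2 members were called between mutant and WT males (hbba1 −1.04, adjusted p = 0.0096, and hbaa1 −1.08, adjusted p = 0.0213, both in the hypothalamus by edgeR's test), 1 between mutant males and females (hbba1 −0.92, adjusted p = 0.0343) and 1 for the interaction (hbba1 1.15, adjusted p = 0.0484), beside 2.4%, 2.23% and 1.89% of all genes. In the direction of these calls, the shares of all genes were 1.75% (lower in mutant males), 0.139% (lower in mutant males than females) and 0.0774% (higher for the interaction). With pool letter as a replicate block, 2, 0 and 0 members were called. In none of the 12 comparisons by region did every pair of same-code pools deviate together with r over 0.1. The lowest r was −0.233 (WT males and females, hypothalamus) and the highest 0.436 (the same in the OB, where all 6 pairs were positive, from 0.0537). The mean r of same-code pairs was positive in each of the 12 comparisons, from 0.0555 to 0.21. The codes hold the pool letter, and are not taken as a pairing beyond it. The 20 calls between letters became 32 of 72 tests with no filter on low counts (all 20 kept, 12 new) and 6 of 18 with at least 10 counts in every library (7 of the 20 still tested, 6 kept, and hbba1 of B against A in the hypothalamus lost). The cause was not tested. Only WT libraries gave 13 of 54 (9 of the 20 kept, 4 new) and only male libraries, added after seeing the data, 6 of 57 (6 kept), both with fewer samples. Leaving out each pool in turn gave 16 to 24, and 14 of the 20 calls held every time. Only female libraries gave 18 calls, of which 13 were among the 20 and 5 were new, and the fit without the WT pools C2 14, all among the 20 (both added after seeing the data). Low-total libraries left out kept 16, thinned counts 15 of the 18 still tested, and DESeq2 kept 19 and added 3. Scaling by the library total only moved the share of higher genes among all calls from 51.3 to 35% for the OB against the Tel, from 50.5 to 34.8% for the OB against the hypothalamus, and in the hypothalamus from 33.1 to 18.5% for letter C against A, from 33.7 to 18.5% for C against B and from 13.9 to 36.5% for mutant against WT females (Tel, from 1.8 to 17.9%; C against A in the OB, from 53.3 to 64.2%). Called members kept their directions there. Correlations of hbba1 between regions stayed between 0.548 and 0.798. Depth limits the rare members: slc4a1a, alas2 and cahz had single counts or none in the shallowest libraries. It limits others in the OB, where nt5c2l1 and hbaa2 were each at 0 in 2 libraries and hbba2 in 1, and hbaa1 fell to 1 count.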
